A study of Mus musculus with 4 samples.

Results

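The aminoacyl-tRNA synthetase genes were taken from a RefSeq gene table as every protein-coding symbol of 1 capital letter followed by ars, with or without a closing 1 or 2, plus Eprs, Farsa and Farsb. The rule found 37 of 21900 protein-coding genes. A symbol ending in 2 marks the mitochondrial enzyme, which gave 17 mitochondrial and 20 cytosolic genes. Most synthetases join 1 amino acid to its tRNA, so that the ribosome can read the codon. All of the synthetases are encoded in the nucleus. Most amino acids have separate genes for the enzyme of the cytosol and that of the mitochondrion, while Gars and Kars each encode both forms. Several cytosolic synthetases are held together in the multisynthetase complex. When charged tRNA runs short, the kinase encoded by Eif2ak4 raises translation of the transcription factor ATF4, whose known targets include cytosolic synthetase genes and whose binding site is the C/EBP-ATF response element (CARE).

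Open chromatin was mapped by ATAC-seq, which uses a transposase to insert adapters where DNA is accessible, in thymocytes sorted as CD4+CD8+ double-positive (DP) cells from C57BL/6 mice. KO cells came from Cd4-cre;CHAF1bfloxp/floxp mice, in which Cre driven by Cd4 regulatory sequence removes the floxed Chaf1b, a subunit of the histone chaperone CAF-1. WT cells came from CHAF1bfloxp/floxp mice without Cre, so both genotypes carried the floxed alleles. Each genotype had 2 replicates, and the deposited files give 1 list of accessible regions for each genotype, pooled from both replicates. Neither the age of the mice nor whether replicates were separate animals is given in the sources used here. With 1 list for each genotype no spread between replicates was available and no difference was tested.

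The KO list held 7645 regions and the WT list 15215. The genome background was 1.03 reads in KO and 1.37 in WT, a relative depth of 0.752, so a region of equal accessibility is expected to hold 42.9% of its summed reads in KO. Reads at the summit, the position of highest coverage in a region, were solved from the deposited values and had medians of 15 in KO and 18 in WT. Of 14 T lineage genes listed as DP thymocyte markers, 1 had a KO region at a gene end (Cd8b1) and 9 had a WT region. Some of them, such as Cd3d, Cd3e and Cd3g, are not particular to DP cells. That is 11.1% of the markers with a WT region (exact Clopper-Pearson 95% interval 0.281 to 48.2), below the 59.4% of all protein-coding genes with a WT region that also had a KO region. Cd4, Cd8a, Cd3e and Tcf7 were among those with none in either list. Of 6 B cell markers 0 had a KO region and 1 (Ebf1) had a WT region, and the 6 myeloid, 5 erythroid and 6 stromal or epithelial markers had 0 in both lists. What part the depth or the smaller number of DP marker regions in KO has in the results was not tested. Chaf1b had a gene end region in both lists, of 13 reads in KO and 14 in WT, and since the position of the deleted part is not given this does not check the genotype. Absence from a list says that no region passed the authors' threshold, not that the chromatin was closed.

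Accessible regions lay at the ends of most synthetase genes. Every synthetase gene with a KO region also had a WT region, as did 4496 of the 4624 protein-coding genes with a KO region. A gene end was the window of 1000 bp on either side of each annotated end of a gene, which takes in the promoter as well as the 3' end of the gene. Of the 37 genes, 20 had a KO region there (54.1%) and 30 had a WT region (81.1%). Among all protein-coding genes the shares were 21.1% with a KO region and 34.6% with a WT region. In both lists were 20 synthetase genes, 66.7% of those with a WT region (47.2 to 82.7), against 59.4% of all protein-coding genes with a WT region. In the WT list only were 10 synthetase genes, and 40.6% of all genes with a WT region were of that kind. In the KO list only there were 0 synthetase genes, and 0.584% of all protein-coding genes. The interval for the synthetases spans the value for all genes, so the share of their WT regions that also appeared in KO was not set apart from that of other genes. The order turned with a stricter threshold, a −log10 q of at least 10, where 35.0% of the synthetases against 41.5% of all genes with a WT region also had a KO region. Intervals here cover counting error only.

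**Figure D1:**
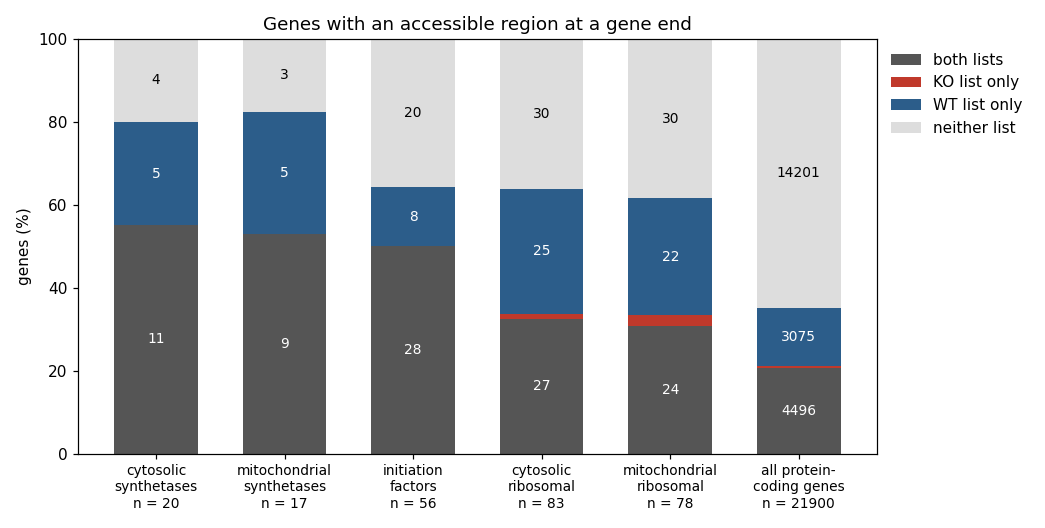
Share of genes (%, y axis) with an accessible region at a gene end in both lists, in KO only, in WT only or in neither, for synthetase genes, 3 other gene groups of translation and all protein-coding genes (x axis), with gene counts inside the bars. The 2 synthetase groups have regions at 16 of 20 and 14 of 17 genes in WT, and neither has a gene in KO only.

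Cytosolic and mitochondrial synthetase genes had alike counts. A KO region was found at 11 of 20 cytosolic genes and a WT region at 16, and all 11 were in both lists (68.75% of those with a WT region, 41.3 to 89.0). Among the 17 mitochondrial genes 9 had a KO region and 14 a WT region, and all 9 were in both lists (64.3%, 35.1 to 87.2). These intervals overlap over most of their length, and the region that Hars and Hars2 share counts in both groups. The authors' fold enrichment at the summit, taken at the strongest gene end region of each gene, had a median of 6.94 in KO and 6.99 in WT for cytosolic genes. For mitochondrial genes the medians were 6.44 in KO and 7.73 in WT. Over all 37 genes the medians were 6.88 in KO and 7.36 in WT, close to the 6.87 in KO and 7.24 in WT of all protein-coding genes with such regions. Median summit reads were 16 in KO and 21 in WT, both for the synthetases and for all protein-coding genes.

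Of the cytosolic enzymes, the strongest gene ends were those of Tars, Lars, Iars and Cars, which charge threonine, leucine, isoleucine and cysteine. Tars had 36 summit reads in KO and 55 in WT, with folds of 11.3 in KO and 13.2 in WT, at chr15:11399502-11399886 in KO and chr15:11399367-11399894 in WT. Lars had 27 reads in KO and 51 in WT (fold 10.9 in KO and 13.5 in WT), and Iars had 19 in KO and 36 in WT (fold 9.35 in KO and 12.2 in WT). Cars, with 24 reads in KO and 34 in WT, had folds of 9.54 in KO and 10.7 in WT. In each of these 4 genes the WT count was the higher. KO reads made up 39.6% of the summed reads at Tars (29.5 to 50.4), 34.6% at Lars (24.2 to 46.2), 34.5% at Iars (22.2 to 48.6) and 41.4% at Cars (28.6 to 55.1), all intervals that include the 42.9% given by depth.

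The promoters of Tars and Iars, and those of Aars, Gars and Yars, were the synthetase promoters that held a CARE, and they are shown because all 5 overlapped a region in both lists. The Aars, Gars and Yars enzymes charge alanine, glycine and tyrosine. Each sequence runs from 250 bases before to 50 bases after the gene start in the RefSeq promoter table (GRCm38.p6), 5′ to 3′ on the gene's strand. They lie at chr15:11399609-11399908 (minus strand, Tars), chr13:49681880-49682179 (plus, Iars), chr8:111033592-111033891 (plus, Aars), chr6:55037751-55038050 (plus, Gars) and chr4:129189653-129189952 (plus, Yars). Capitals mark the CARE letters TGATGNAA, the E-box CACGTG and the ETS letters CCGGAAG, each on either strand, and no capitals of one motif overlap those of another.
Tars: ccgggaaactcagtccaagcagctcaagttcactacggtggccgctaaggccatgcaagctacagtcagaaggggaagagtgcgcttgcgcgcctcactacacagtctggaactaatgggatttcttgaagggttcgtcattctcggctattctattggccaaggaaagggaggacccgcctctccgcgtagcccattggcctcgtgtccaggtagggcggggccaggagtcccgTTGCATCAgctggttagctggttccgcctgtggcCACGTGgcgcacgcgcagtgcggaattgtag
Iars: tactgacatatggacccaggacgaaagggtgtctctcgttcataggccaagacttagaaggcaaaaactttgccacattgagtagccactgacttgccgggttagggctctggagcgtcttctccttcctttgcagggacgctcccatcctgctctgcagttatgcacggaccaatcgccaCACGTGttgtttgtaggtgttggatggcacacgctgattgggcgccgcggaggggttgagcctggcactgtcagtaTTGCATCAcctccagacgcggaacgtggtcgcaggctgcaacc
Aars: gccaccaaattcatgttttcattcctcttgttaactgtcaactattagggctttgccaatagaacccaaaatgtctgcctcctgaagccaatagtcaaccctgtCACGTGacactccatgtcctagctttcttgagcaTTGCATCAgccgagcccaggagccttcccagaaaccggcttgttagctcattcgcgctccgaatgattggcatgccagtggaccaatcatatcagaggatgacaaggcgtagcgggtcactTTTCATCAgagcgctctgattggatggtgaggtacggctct
Gars: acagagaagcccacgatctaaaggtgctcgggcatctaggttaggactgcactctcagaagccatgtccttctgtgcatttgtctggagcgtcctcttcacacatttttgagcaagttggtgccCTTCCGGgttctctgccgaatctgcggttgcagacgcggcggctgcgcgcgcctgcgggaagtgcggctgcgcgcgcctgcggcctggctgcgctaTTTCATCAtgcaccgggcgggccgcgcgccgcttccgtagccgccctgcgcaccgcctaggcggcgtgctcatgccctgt
Yars: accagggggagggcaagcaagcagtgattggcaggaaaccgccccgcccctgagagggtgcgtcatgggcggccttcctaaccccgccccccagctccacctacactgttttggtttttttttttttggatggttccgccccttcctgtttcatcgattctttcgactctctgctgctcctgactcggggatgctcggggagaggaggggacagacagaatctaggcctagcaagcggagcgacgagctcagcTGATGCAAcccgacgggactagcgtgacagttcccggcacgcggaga

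In Tars the CARE lay from base -15 to -8 relative to the gene start, in Iars from 7 to 14, in Gars from -30 to -23 and in Yars from 3 to 10. Aars held a pair of them, from -112 to -105 and from 9 to 16. Of the 27 synthetase genes in the promoter table, 5 held the motif (18.5%), against 3.60% of all 21263 protein-coding promoters and 1.81% of the 6590 that overlap a WT region. The carriers were 5 of 13 cytosolic promoters and 0 of 14 mitochondrial ones. All 5 overlapped a KO region and a WT region, while of the other 8 cytosolic promoters 3 overlapped a KO region and 6 a WT region. Among all promoters with a CARE and a WT region, 70 of 119 (58.8%) also overlapped a KO region, near the 58.5% of all promoters with a WT region. A match of letters describes the sequence and does not show that a factor binds there.

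Nars, which charges asparagine, had 18 reads in KO and 22 in WT, with folds of 7.79 in KO and 7.67 in WT. Gars had 13 reads in KO and 15 in WT (fold 6.89 in KO and 6.74 in WT). In both genes the folds of the lists differed little. Yars had 11 reads in KO and 22 in WT (fold 5.36 in KO and 7.14 in WT), the lowest KO share of any synthetase gene in both lists at 33.3% (17.96 to 51.8). Its WT summit lay at -249 bp from the gene start and its KO summit at -13 bp. This share thus compares reads at separate positions, in a region shared with S100pbp. Sars, for serine, had 12 reads in KO and 20 in WT (fold 5.37 in KO and 6.65 in WT), and its wide KO region of 631 bp overlapped 2 WT regions. Wars, for tryptophan, stood at 11 reads in both lists (fold 5.45 in KO and 5.06 in WT), the lowest WT count among the strongest gene end regions of the family. Qars, for glutamine, had 14 reads in KO and 12 in WT at its start, a KO share of 53.8% (33.4 to 73.4), and another region beyond its far end that it shares with Qrich1, of 12 reads in KO and 16 in WT. Among cytosolic genes in both lists, Qars alone had a KO count above the WT count of the overlapping region.

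**Figure D2:**
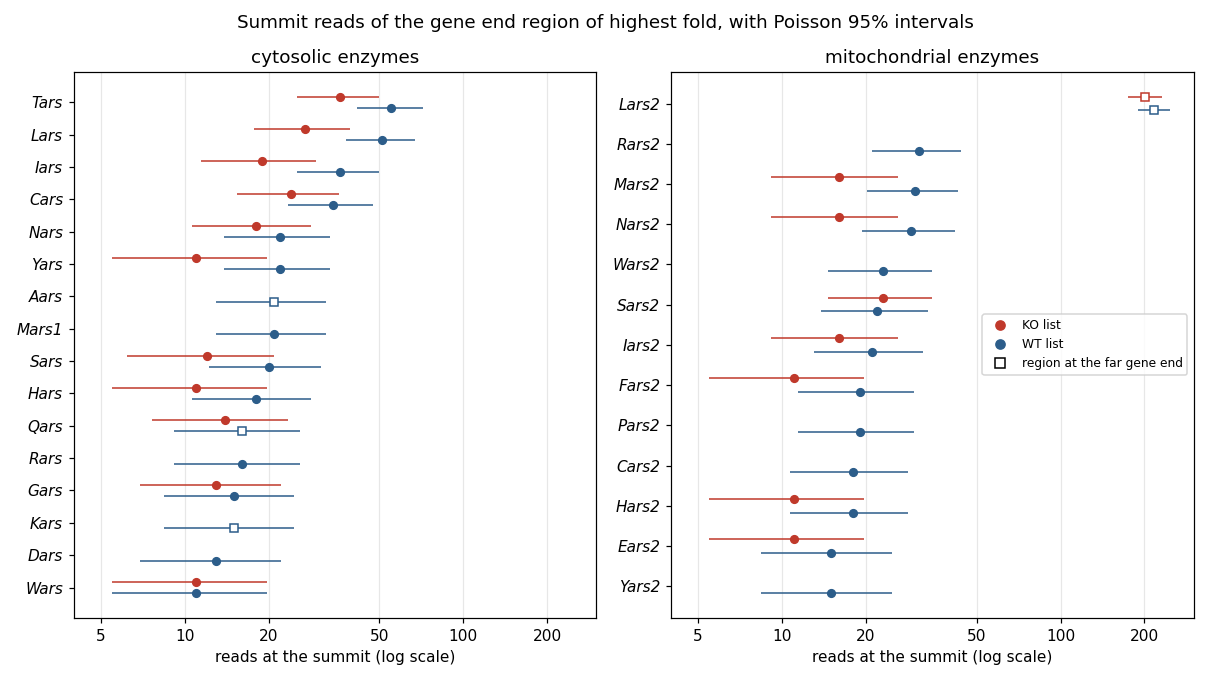
Reads at the summit of the strongest gene end region (x axis, log scale) for synthetase genes with a region (y axis), KO above WT, with exact Poisson 95% intervals as lines. A gene with no KO point had no KO region, and open squares are regions at the far gene end, known only for genes whose strand is given. Tars and Lars lead the cytosolic genes with 36 and 27 reads in KO and 55 and 51 in WT, and the far end of Lars2 stands apart with 201 in KO and 217 in WT.

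Of the mitochondrial enzymes with a region in both lists, Mars2, for methionine, had 16 reads in KO and 30 in WT, with folds of 6.44 in KO and 9.51 in WT. Nars2 had the same 16 reads in KO and 29 in WT (fold 7.20 in KO and 9.43 in WT). Their KO shares, 34.8% (21.4 to 50.2) and 35.6% (21.9 to 51.2), were the lowest of the mitochondrial genes, with intervals that include the share given by depth. Sars2 was the one mitochondrial gene with more reads in KO, 23, than in WT, 22, a share of 51.1% (35.8 to 66.3). Its region also lies at an end of Mrps12, a mitochondrial ribosomal protein gene. Iars2, for isoleucine, had 16 reads in KO and 21 in WT (fold 5.48 in KO and 7.48 in WT). Fars2, for phenylalanine, had 11 in KO and 19 in WT (fold 5.36 in KO and 7.25 in WT), and Ears2, for glutamate, 11 in KO and 15 in WT (fold 5.26 in KO and 6.02 in WT). The WT summit of Ears2 lay outside its KO region, so its counts come from separate positions. Hars2 shares its region with Hars, the cytosolic histidine enzyme next to it, and that region held 11 reads in KO and 18 in WT (fold 5.90 in KO and 7.79 in WT).

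Lars2 was counted in both lists only through its far end. There, at chr9:123461731-123462280 in KO and chr9:123461721-123462279 in WT, it held 201 reads in KO and 217 in WT, with folds of 24.6 in KO and 23.5 in WT. KO reads made up 48.1% of the summed reads there (43.2 to 53.0). Of the synthetase genes in both lists, Lars2 alone had an interval that leaves out the 42.9% given by depth, which lies just below it. No protein-coding gene end had a higher strongest-region read count in either list. The local background was 6.98 times the genome background in KO and 6.03 times in WT, with 360 reads in the surrounding 10 kb in KO and 414 in WT. At the start of Lars2, 13 reads made a region in WT (fold 5.90) and none was called in KO. With regions over 4 times the genome background left out, a choice made after the data were seen, 19 synthetase genes had a KO region and 30 a WT region.

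The 10 genes called in WT only comprised 5 cytosolic genes (Dars, Aars, Kars, Mars1, Rars) and 5 mitochondrial genes (Wars2, Rars2, Pars2, Cars2, Yars2). Their median WT reads were 18.5, against 22 for the 20 genes in both lists. Among all protein-coding genes these medians were 15 for genes in WT only and 26 for genes in both lists. Rars2, the mitochondrial arginine enzyme, led with 31 reads and a fold of 11.6, at chr4:34614758-34615047, a region that it shares with Orc3, an origin recognition complex gene. Wars2, for tryptophan, followed with 23 reads and a fold of 8.05 over 803 bp, the widest gene end region of the family. The nearest KO region was 27.1 kb from Rars2 and 712 kb from Wars2.

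The promoters of Rars2 and Wars2 are shown because they carry the 2 strongest WT gene end regions among genes called in WT only. They lie at chr4:34614707-34615006 (plus strand, Rars2) and chr3:99140840-99141139 (plus, Wars2) in GRCm38.p6, from the same RefSeq table. Capitals mark the core letters of the NRF1 site, GCATGCGC, on either strand, and in Rars2 also the ETS letters CCGGAAG.
Rars2: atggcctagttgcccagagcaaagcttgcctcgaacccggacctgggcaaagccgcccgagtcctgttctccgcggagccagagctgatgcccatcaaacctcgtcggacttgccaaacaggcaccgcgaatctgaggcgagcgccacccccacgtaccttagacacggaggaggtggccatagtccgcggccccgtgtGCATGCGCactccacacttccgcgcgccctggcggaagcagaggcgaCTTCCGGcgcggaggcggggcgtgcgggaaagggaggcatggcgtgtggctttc
Wars2: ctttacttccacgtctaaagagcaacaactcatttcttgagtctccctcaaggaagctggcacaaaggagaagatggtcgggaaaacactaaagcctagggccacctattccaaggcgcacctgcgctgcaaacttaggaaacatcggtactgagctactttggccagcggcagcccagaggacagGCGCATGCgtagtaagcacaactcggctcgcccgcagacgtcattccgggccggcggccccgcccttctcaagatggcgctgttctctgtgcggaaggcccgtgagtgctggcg

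NRF1 is a transcription factor known for its role at nuclear genes of the mitochondrion. Its core lay from base -51 to -44 in Rars2 and from -64 to -57 in Wars2, and Vars2 held it too. These were 3 of 14 mitochondrial promoters and 0 of 13 cytosolic ones, 11.1% of the 27, against 3.52% of all promoters and 6.59% of those that overlap a WT region. Of the 3, 0 overlapped a KO region and 2 a WT region. Of all promoters with the core and a WT region, 53.5% also overlapped a KO region. The ETS letters occurred in 9 synthetase promoters (33.3%), against 11.6% of all promoters and 23.5% of those with a WT region. The GC box GGGCGG was held by 19 (70.4%), against 46.2% of all and 71.8% of those with a WT region, and the E-box by 5 (18.5%), against 7.84% of all and 11.2% of those with a WT region. CCAAT was held by 13 (48.1%), against 38.2% of all and 45.7% of those with a WT region. TATAAA was held by 3 (11.1%), against 12.6% of all and 4.95% of those with a WT region, and GATGGCGG, a YY1-type site, by 2 (7.41%), against 2.27% of all and 4.32% of those with a WT region. Apart from TATAAA and the GC box, each motif searched was thus more frequent among the synthetase promoters than in either set, on counts of 2 to 13 promoters. Median GC content was 57.7% in the synthetase promoters, against 62.3% in promoters with a WT region and 56.3% in all.

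The remaining genes in WT only had weaker regions. Mars1, the cytosolic methionine enzyme, had 21 reads (fold 6.83), Pars2, for proline, had 19 (6.76), and Cars2 had 18 (5.19). Rars had 16 reads (7.17), Yars2 15 (5.88) and Dars 13 (5.51). Kars, for lysine, had 15 reads at its start, shared with Terf2ip, and 15 beyond its far end, shared with Adat1. Adat1 encodes a deaminase that edits alanine tRNA. The KO list held a region 1.01 kb beyond Kars, just outside the window.

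Aars, Eprs and Tars2 show what the annotated gene end leaves out. Aars was placed in WT only through a region of 21 reads lying 597 bp beyond its far end, at Exosc6. Its start in the promoter table lies inside the annotated gene, and there both lists had a region, of 18 reads in KO and 23 in WT (fold 8.19 in KO and 9.45 in WT). Eprs, which charges both glutamate and proline, had no gene end region, but at its promoter-table start it had 16 reads in KO and 31 in WT (fold 7.73 in KO and 9.47 in WT). Tars2 had 14 reads at its promoter-table start in WT (6.32) and no region there in KO. Counted within 1000 bp of the promoter-table start, a choice made after the data were seen, 14 of the 27 genes in that table had a KO region and 23 a WT region, and all 14 were in both lists (60.9% of those in WT, against 59.8% for all genes).

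**Figure D3:**
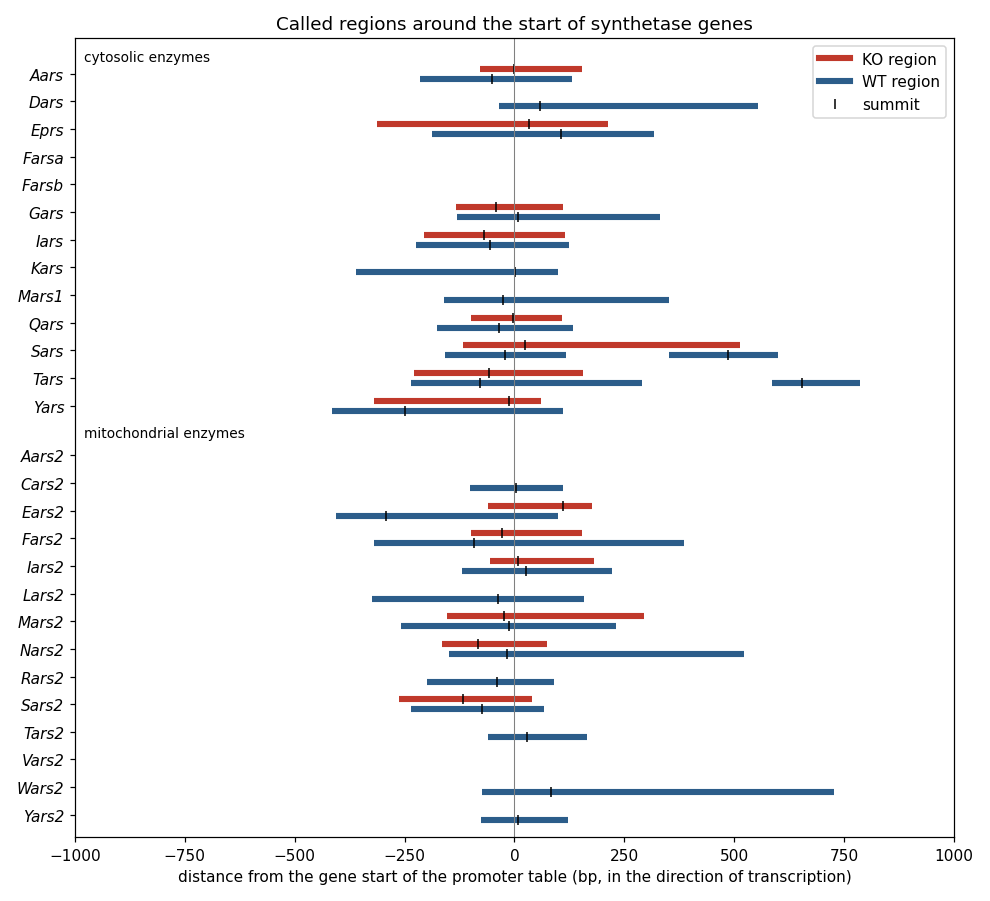
Called regions, KO above WT, within 1000 bp of the gene start of the promoter table (x axis, bp in the direction of transcription) for the 27 synthetase genes in that table (y axis), with summits as ticks. Regions cover the start itself in 14 genes in KO and 23 in WT, and the 4 genes with no bar, Farsa, Farsb, Aars2 and Vars2, have none in either list.

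Around these starts the summits were close to the start itself. The median summit position was -18.5 bp in KO (14 genes) and -22 bp in WT (23 genes), and 12 of the 14 KO summits and 20 of the 23 WT summits lay within 100 bp of the start. The WT summits of Yars and Ears2, at -249 and -293 bp, were far upstream of their KO summits at -13 and 110 bp. Strongest gene end regions had a median width of 323 bp in KO and 370 bp in WT. The 9 mitochondrial KO regions had a median width of 254 bp, against 419.5 bp for the 14 mitochondrial WT regions. Of those WT regions, 5 belong to genes called in WT only, so the sets of genes differ. At each of the 9 mitochondrial genes in both lists the WT region was also the wider. The widths ran from 303 bp in KO and 304 bp in WT at Sars2 to 254 bp in KO and 705 bp in WT at Fars2. Among cytosolic genes the 11 KO regions had a median of 334 bp, against 359.5 bp for the 16 WT regions. The whole KO list had a median width of 279 bp, and the whole WT list one of 307 bp. Differences in width were not tested.

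Besides Eprs and Tars2, 5 genes had no gene end region in either list. Farsa and Farsb, which encode the subunits of the cytosolic phenylalanine enzyme, had their nearest region 9.71 kb away in KO and 9.73 kb in WT (Farsa) and 48.6 kb away in both lists (Farsb). Vars, for valine, had its nearest region at 68.1 kb in KO and 30.4 kb in WT, Vars2 at 4.33 kb in KO and 4.35 kb in WT, and Aars2 at 633 kb in KO and 6.15 kb in WT. Both subunits of the phenylalanine enzyme were thus without a called region, while the single-chain mitochondrial enzyme Fars2 had one in each list.

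The cytosolic enzymes of the multisynthetase complex were set beside the others, a grouping chosen after the values were seen and not tested. Of the 8 complex enzymes, 3 had a KO region at a gene end (Iars, Lars, Qars) and 7 had a WT region, so that 4 were in WT only (Dars, Kars, Mars1, Rars). Eprs, the eighth, had its regions at the promoter-table start only. Of the 12 other cytosolic genes, 8 had a KO region and 9 a WT region, and Aars was the 1 in WT only. Of all protein-coding genes with a WT region, 59.4% also had a KO region and 40.6% were in WT only, and counts this small do not set the complex apart. With Aars and Eprs counted at their promoter-table starts both would move to the class of both lists. A window of 2000 bp placed Kars and Eprs in both lists and left Dars, Mars1 and Rars in WT only.

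How often a gene with a WT region also had a KO region went with the reads behind the WT region. Over all protein-coding genes that share was 24.3% at 13 to 15 WT summit reads, 37.4% at 16 to 18, 58.98% at 19 to 22, 82.1% at 23 to 29 and 96.8% at 30 to 59. Of the synthetase genes, 2 of 5 were in both lists at 13 to 15 reads, 3 of 5 at 16 to 18, 7 of 10 at 19 to 22, 1 of 2 at 23 to 29 and 5 of 6 at 30 to 59. Wars, the 1 gene at 7 to 12 reads, was in both lists, where 18.2% of all genes were, and so was Lars2 at 217 reads, where 99.1% were at 60 to 400. Rars2 was the exception at 30 to 59 reads, a range in which 1649 of 1704 protein-coding genes were in both lists. Each range holds too few synthetase genes to set them apart from other genes.

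**Figure D4:**
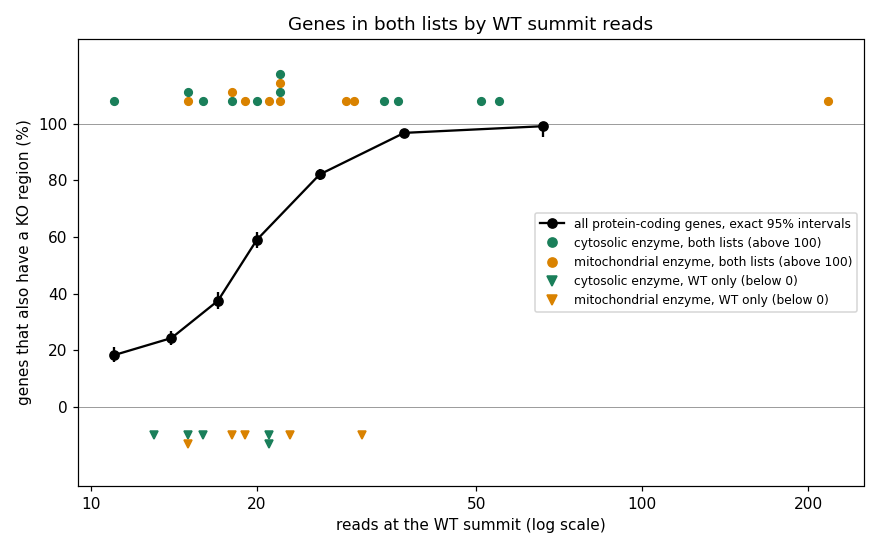
Share of protein-coding genes with a WT region that also had a KO region (%, y axis, black points with exact 95% intervals) by reads at the WT summit (x axis, log scale), with each synthetase gene placed above 100 if it was in both lists and below 0 if it was in WT only. The share climbs to 96.8% at 30 to 59 reads, and the mitochondrial triangle at 31 reads is Rars2.

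Summed over the 19 regions behind the 20 genes in both lists, KO held 507 reads and WT 671, a KO share of 43.0% (40.2 to 45.9). The far end of Lars2 gave 418 of these reads, and without it the share was 40.3% (36.8 to 43.8), from 306 reads in KO and 454 in WT. Over all protein-coding genes in both lists KO held 38.4% (38.2 to 38.7), below the 42.9% that depth gives. The 38.4% of all genes lies under the interval of the synthetases with Lars2 and inside the interval without it. Without Lars2 the synthetase share was still the higher of the 2. By summed reads, it was 41.6% against 41.5% of all genes at 20 to 34 reads (8 synthetase regions). At 35 to 49 reads it was 42.1% against 38.1% (6 regions), and at 50 to 100 reads 37.6% against 37.4% (4 regions). The region that Hars and Hars2 share enters both of the next shares. Cytosolic genes stood at 39.8% (35.5 to 44.3) and mitochondrial genes without Lars2 at 40.7% (35.1 to 46.6). These last intervals include the value of all genes and that of depth, so at these read counts neither a loss nor a gain of reads in KO was detectable. Only called regions enter these sums, which leaves out the 10 genes called in WT only. At Yars and Ears2 the KO and WT counts in the sums come from separate summit positions.

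Many synthetase regions were shared with a neighbouring gene. The strongest region also lay at an end of another protein-coding gene for 9 of the 20 genes with a KO region and for 13 of the 30 with a WT region (43.3%). These shares over all protein-coding genes were 30.3% in KO and 29.8% in WT. Sharing was seen at 6 of 9 mitochondrial genes in KO and 7 of 14 in WT, and at 3 of 11 cytosolic genes in KO and 6 of 16 in WT. Neighbours included Bpnt1 at Iars2, Lyrm4 at Fars2, Ubfd1 at Ears2, S100pbp at Yars and Wdr25 at Wars. Such a region cannot be assigned to one of its genes. Of the 13 synthetase genes with a shared WT region 10 were in both lists (76.9%, 46.2 to 94.96), and of the 17 with a region of their own 10 were (58.8%, 32.9 to 81.6). Over all protein-coding genes these shares were 61.6% with a shared region and 58.5% with a region of their own, and both intervals of the synthetases include them.

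Other genes of tRNA charging were described by lists that stand beside the synthetases. Of 42 such genes, 17 had a KO region and 28 a WT region, and all 17 were in both lists (60.7%, 40.6 to 78.5), close to the 59.4% of all protein-coding genes. Of the scaffold genes of the multisynthetase complex, Aimp1 (11 reads in KO, 17 in WT) and Aimp2 (20 in KO, 27 in WT) were in both lists and Eef1e1 was in WT only with 26 reads. Of the elongation factor 1 genes, whose products deliver charged tRNA to the ribosome or recharge the carrier with GTP, Eef1g (22 in KO, 32 in WT) and Eef1b2 (13 in KO, 20 in WT) were in both lists. Eef1a1 and Eef1d, with 15 reads each, were in WT only. Among 7 genes of related charging, editing and deacylation, Prorsd1 (24 in KO, 35 in WT), Tarsl2 (29 in KO, 43 in WT) and Dtd2 (12 in KO, 16 in WT) were in both lists. Aarsd1, Sepsecs and Pstk were in WT only, with 11, 13 and 10 reads.

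Of 6 genes of mitochondrial delivery and amidation, Gatb (27 reads in KO, 43 in WT), a subunit of the enzyme that makes mitochondrial glutaminyl-tRNA, and Tufm (10 in KO, 13 in WT) were in both lists and 4 were in neither. Among 13 genes of tRNA maturation 6 were in both lists, led in WT by Elac2 (29 reads in KO, 36 in WT), which trims tRNA 3' ends, and Pop1 (14 in KO, 23 in WT). Trmt5 and Trmu were among the 3 in WT only, and 4 were in neither. Of 9 genes of the amino acid response, Atf4 had 18 reads in KO and 38 in WT (fold 8.26 in KO and 12.1 in WT). Eif2ak4 had 14 in KO and 29 in WT (fold 6.76 in KO and 9.80 in WT). Sesn2 (26 reads) and Trib3 (19 reads) were in WT only, and Ddit3, Asns, Chac1, Atf3 and Cebpb were in neither.

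Of the synthetase genes and 3 other gene groups of translation, the synthetases had the highest share of genes with a WT region. Cytosolic ribosomal protein genes had a KO region at 28 of 83 genes and a WT region at 52, with 27 in both lists (51.9%, 37.6 to 66.0). Mitochondrial ribosomal protein genes had 26 of 78 in KO and 46 in WT, with 24 in both (52.2%, 36.9 to 67.1). Translation initiation factor genes had 28 of 56 in KO and 36 in WT, with 28 in both (77.8%, 60.8 to 89.9). All of these intervals overlap that of the synthetases. In KO only were Rpl36al, Mrps35 and Mrpl45, named here after their values were seen, and no initiation factor or synthetase gene.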

How the data were processed

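ATAC-seq regions of DP thymocytes were taken as deposited, with positions in mm10. The submitters' processing notes name MACS2 2.1.4, deepTools 3.4.1, Picard, GATK, Bowtie2, Trim Galore and FastQC. Settings, their order, duplicate removal and a correction of read ends for the transposase are not given in the sources used here. The authors' lists hold per region a score and, at its summit, the fold enrichment and the −log10 p-value and q-value. These deposited folds served to describe, rank or filter regions within a list.

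Summit reads and local background were solved from the deposited fold and −log10 p with the formulas of MACS2. The solved reads were whole within 0.05 on 100% of lines, and the most frequent background gave the relative depth. Sequencing totals were not used here. Gene positions and promoters came from RefSeq tables of GRCm38.p6, the assembly behind mm10, and 27 of the 37 genes had a promoter entry, which gives the strand. No exon annotation was used, so exons and introns were not set apart. Motifs were searched on both strands. Shares carry exact Clopper-Pearson 95% intervals and single counts exact Poisson 95% intervals, and no test was run. The solver was tested on simulated data. The gene end window rule was checked on planted regions in a separate calculation, and the overlap of KO and WT regions was not tested.

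Every synthetase gene was placed as in both lists, in WT only, in KO only or in neither. Of each other pathway list, genes in 1 list only were named, with the 2 of highest WT fold among those in both lists. A few genes that fall under these rules are counted but not reported by name here. The genes and the lists were chosen with earlier results of these data known. Alternatives were the window, the q threshold, a WT list as short as the KO list, overlap of the regions, shared regions left out, the annotated start only, Gars and Kars left out, and a minimum of summed reads. The promoter-table start and leaving out regions of high background were chosen once the data had been seen. Values were computed with scipy 1.17.1, pandas 2.3.3 and numpy 2.4.6 under Python 3.11.15 and drawn with matplotlib 3.10.9.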

Additional observations from a re-analysis of the deposited data

How the results depend on the processing

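No paired analysis was possible because each genotype's deposited list pools both replicates, and for the same reason no replicate could be left out. Of 96 recomputed values 81 stayed within the limits set for a change and 15 moved. These values are counts, medians and shares, which have no direction to reverse. With −log10 q of at least 10, 7 synthetase genes had a KO region and all 7 were in both lists, 5 cytosolic and 2 mitochondrial, with a median KO fold of 9.54. With the annotated start only, over 27 genes, 12 had a KO region and all 12 were in both lists, 6 of them cytosolic. With genes of shared regions left out, over 24 genes, 10 had a KO region, 17 a WT region and 10 were in both lists, 7 cytosolic and 3 mitochondrial. With the WT list limited to the length of the KO list, there were 3 synthetase genes in KO only and 6 in WT only. Counts from the start-only and shared-region settings rest on fewer genes by construction. The stricter q threshold and the limited WT list keep fewer regions by construction, and what else moved their values was not tested. The share of genes with a WT region that also had a KO region was above that of all protein-coding genes in the main count, 66.7% against 59.4%, but below it in 3 settings. It was 51.7% against 55.8% with −log10 q of at least 5, 35.0% against 41.5% with at least 10, and 73.9% against 77.9% with the limited WT list. A window of 500 bp gave 19 genes with a KO region and 27 with a WT region, a share of 70.4% against 59.4% of all protein-coding genes. A window of 2000 bp gave 22 with a KO region and 32 with a WT region, 68.75% against 59.6%. With genes of shared regions left out the share was close to that of all genes, 58.8% against 58.3%. With the annotated start only it was also close, 12 of 20 genes against 59.96% of all genes.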

Other observations

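Away from gene ends and gene starts, synthetase genes held few called regions. Fars2, a gene of 420 kb, had a region 248885 bp from its start in KO and 248880 bp in WT, at chr13:36366146-36366719 in KO and chr13:36366094-36366707 in WT. It held 21 reads in KO and 29 in WT, with folds of 8.21 in KO and 9.32 in WT, more than the Fars2 gene end in either list. Wars2 had a region of 19 reads (fold 8.43) 52707 bp from its start in WT, with none in KO, and Nars had one of 11 reads (fold 5.06) in WT, with none in KO. Whether these regions act on the genes that contain them was not tested.

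Of the genes with a WT region at their strongest end, Sars, Tars and Hars had a further WT region at a gene end with no separate KO region, as did Lars2 and Kars at their starts. Those held 17 reads at Sars, 17 at Tars and 12 at Hars, the last shared with Dnd1, and 13 at Lars2 and 15 at Kars.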
